A study of Homo sapiens with 4 samples.

Results

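Human embryonic stem cells of the established line KhES1 were turned into blastoids, cell aggregates grown as a model of the early embryo, and a small set of the blastoid cells still carried the messenger RNAs of pluripotent epiblast. These residual epiblast-like cells were picked by a gate. A cell needed at least 500 detected genes and at least 1 unique molecular identifier (UMI, a tag that marks 1 captured RNA molecule) of at least 3 of the 5 genes POU5F1, SOX2, NANOG, TDGF1 and PRDM14. The gate took 46 of 2289 cells of the library blastoid 3 and 92 of 1951 cells of blastoid 4, 138 of the 4240 blastoid cells with at least 500 genes and of 9680 such cells in the series. They were set against the other 4102 blastoid cells and against 3236 stem cells that passed the same gate, 1467 in the library hESC 1 and 1769 in hESC 2. The values of the 5 gate genes chose the cells and are described without a test.

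The series holds 2 single-cell libraries of KhES1 kept in mTeSR-1, a maintenance medium, on Matrigel, and 2 libraries of blastoids made from the same line. For blastoids, dissociated cells were aggregated for 24 h in mTeSR-1 with 10 µM Y27632, a kinase inhibitor, and embedded in 10% (w/v) of the hydrogel PNIPAAm-β-PEG. They were overlaid with DMEM holding 10% (v/v) fetal bovine serum for 3 days, and then fed daily with iBlastoid medium. All 4 libraries come from 1 line, and the labels name no genetic change. The stem cells, too, met 10 µM Y27632 on the first day after passage. Titles of the blastoid samples carry D0 while their deposited tables are named D9, so groups were taken from the descriptions. Nothing states that 2 libraries of a group came from separate cultures, so p-values measure only the spread between these libraries, which may be technical.

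In the embryo the epiblast is the pluripotent tissue from which the body forms, and POU5F1 (OCT4), SOX2 and NANOG are its core transcription factors. TDGF1 encodes a co-receptor for the ligand NODAL, and PRDM14 a transcription factor of pluripotent and germ cells. Around implantation the human epiblast passes from a naive state, marked by KLF and TFCP2L1 factors, to a primed state, marked by ZIC2, OTX2 and SFRP2, which cultured human stem cells resemble. WNT, BMP and NODAL signals then draw epiblast cells into the primitive streak, where TBXT and MIXL1 switch on.

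Gated cells were sampled unequally deeply. The median was 6903 UMIs in hESC 1, 6493 in hESC 2, 11100 in blastoid 3 and 13788 in blastoid 4, against 6172 and 8645 in the other blastoid cells. The UMIs of gated cells summed to 10854781, 12347496, 509403 and 1251993. The median mitochondrial share lay between 10.3% and 11.5% in all 4 gated groups. Every deposited table holds barcodes with 201 to 4994 genes, so cells with more genes are not analysed here. Libraries of a group share cell barcodes, 1317 in hESC and 1035 in blastoids, against 6 to 14 between groups. Of the 92 gated cells of blastoid 4, 85 have a barcode that also occurs in blastoid 3, each time with fewer than 500 genes there and with a median of 2.95% of the UMIs. No gated cell of blastoid 3 has such a barcode, and 1130 gated cells of hESC 2 have one. Results are therefore also given without the cells that share a barcode, which leaves 7 gated cells in blastoid 4.

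The gate passed 2.01% (exact 95% interval 1.47 to 2.67) of blastoid 3 cells and 4.72% (3.82 to 5.75) of blastoid 4 cells. In the stem cell libraries it passed 64.8% (62.8 to 66.7) and 55.7% (54.0 to 57.5). These intervals cover counting error only. Both blastoid libraries lie far below both stem cell libraries, 3.36% ± 1.91 (SD, n = 2) against 60.2% ± 6.40 (SD, n = 2). The exact two-sided permutation test gave p = 0.33, the smallest that 2 against 2 libraries allow. The share depends on depth: with every cell thinned to 2000 UMIs it was 0.688% and 1.52% in the blastoid libraries and 25.4% and 25.2% in the stem cells. Without cells that share a barcode it was 2.01% in blastoid 3 and 0.764% in blastoid 4, so the order of the blastoid libraries rests on those cells.

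**Figure D1:**
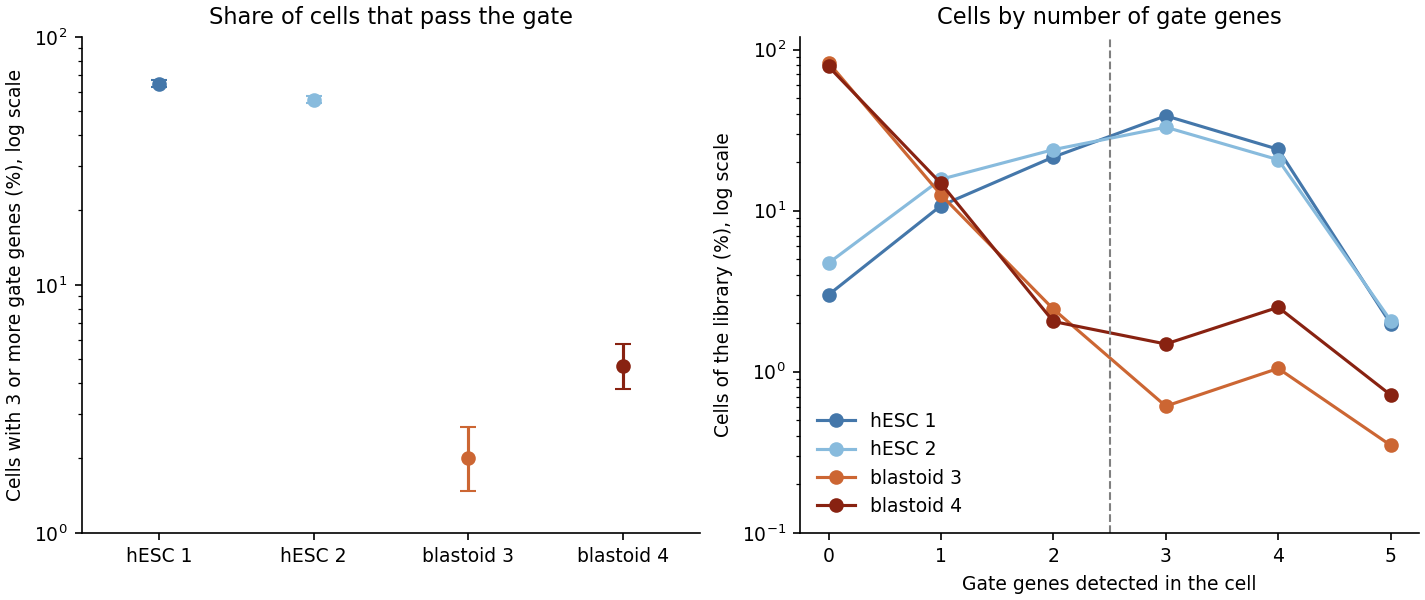
Left, the percentage of cells with at least 3 gate genes in each library (log axis; bars are exact 95% intervals), 2.01% and 4.72% in the blastoid libraries against 64.8% and 55.7% in hESC. Right, the percentage of each library's cells by number of gate genes detected (log axis; dashed line, the gate): blastoid cells are mostly at 0, and both blastoid curves rise again from 3 to 4 gate genes.

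POU5F1 was found in 46 of 46 gated cells of blastoid 3 and 91 of 92 of blastoid 4. Its level in the summed UMIs was 999 and 945 CPM (counts per 1000000 summed UMIs) there, 1150 and 1142 CPM in gated hESC 1 and hESC 2, and 27.7 and 27.2 CPM in the other blastoid cells. The distance to the other blastoid cells is set by the gate, which used this gene. SOX2 stood at 304 and 236 CPM in gated blastoid cells and at 348 and 326 CPM in gated stem cells. TDGF1 stood at 314 and 319 CPM against 349 and 370 CPM. NANOG and PRDM14 lay the other way round. NANOG reached 167 and 150 CPM in gated blastoid cells against 101.2 and 109 CPM in gated stem cells, and PRDM14 reached 27.5 and 23.2 CPM against 9.95 and 12.96 CPM. POU5F1 and NANOG have processed pseudogenes, so the assignment of some of their reads is uncertain. All of POU5F1, SOX2, NANOG and TDGF1, without PRDM14, were detected in 47.8% and 46.7% of gated blastoid cells and in 33.9% and 33.7% of gated stem cells, which were shallower.

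NANOG is shown here because it is the core factor with the higher level in the gated blastoid cells. These are the 150 bases before its annotated start (RefSeq, GRCh38.p14, chr12:7789252-7789401, plus strand). Capitals mark, on either strand, the octamer motif ATGCAAA at -120 and the SOX motif CATTGT at -112, counted from the start; they do not overlap.
NANOG: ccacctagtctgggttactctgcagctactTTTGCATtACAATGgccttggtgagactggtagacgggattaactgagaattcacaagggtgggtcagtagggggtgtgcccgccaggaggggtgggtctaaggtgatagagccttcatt
Of 35116 RefSeq promoters of 300 bases, 4.46% hold the octamer letters and 10.8% the SOX letters on either strand. Of the 5 gate genes 2 matched a promoter in that table, NANOG and SOX2, and both hold the octamer. These are letter matches, not binding sites.

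The number of gate genes per cell had a second, small peak in the blastoid libraries. In blastoid 3 there were 1900 cells with none, then 287, 56, 14, 24 and 8 with 1 to 5 gate genes. In blastoid 4 there were 1531, 288, 40, 29, 49 and 14. More cells carried 4 gate genes than 3 in both libraries. The 43 cells just inside the gate (14 and 29) and the 96 just outside it (56 and 40) are described here by genes that the gate did not use. NODAL stood at 184 and 177 CPM in cells with 3 gate genes and at 22.4 and 25.1 CPM in cells with 2. UTF1, a chromatin factor of pluripotent cells, stood at 88.5 and 147 CPM inside and at 12.2 and 19.3 CPM outside. HAND1, a transcription factor of extraembryonic and lateral mesoderm, stood at 214 and 134 CPM inside and at 428 and 621 CPM outside. MIXL1, a homeobox factor of the primitive streak, had its highest level in the cells just outside the gate, 163 and 83.0 CPM with 2 gate genes, against 88.5 and 32.1 CPM with 3 and 10.0 and 5.11 CPM with all 5. MESP1, a factor of nascent mesoderm, was high on either side of the gate in blastoid 3, 196 and 280 CPM with 2 and 3 gate genes. In blastoid 4 it was high only outside, 123 CPM with 2 and 10.7 CPM with 3.

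**Figure D2:**
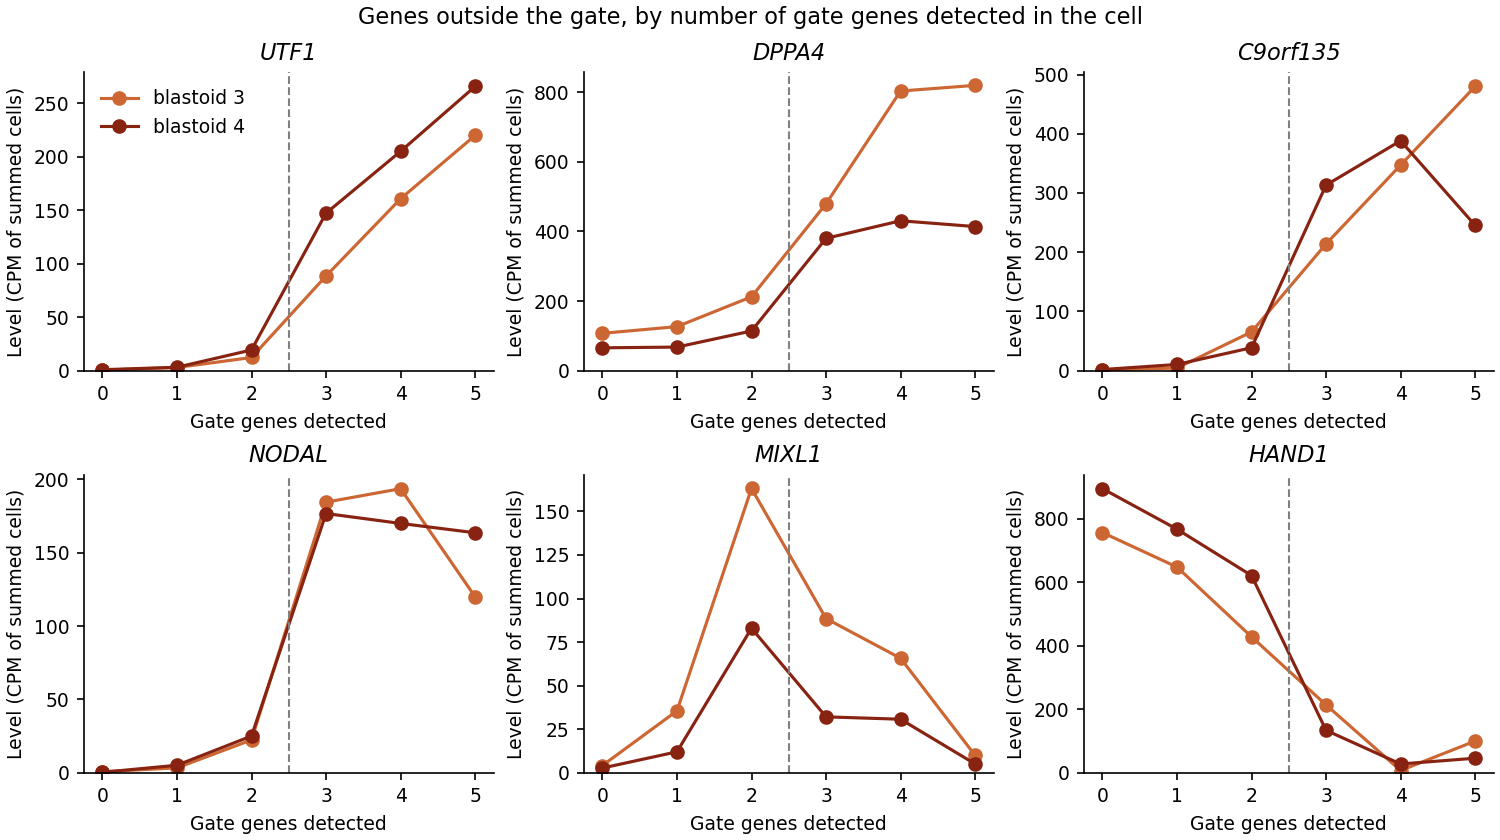
Level (CPM of the summed UMIs) of 6 genes outside the gate, by the number of gate genes detected in the cell, in blastoid 3 and blastoid 4 (dashed line, the gate). UTF1, DPPA4, C9orf135 and NODAL rise across the gate, HAND1 falls from 757 and 895 CPM at no gate gene, and MIXL1 peaks at 163 and 83.0 CPM with 2 gate genes.

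Clustering of all blastoid cells with the 5 gate genes removed put 133 of the 138 gated cells (96.4%, exact 95% interval 91.7 to 98.8) into 1 of 12 clusters, all 46 of blastoid 3 and 87 of 92 of blastoid 4. A finer clustering gave 89.9%. The cluster holds 242 cells, of which 46 have 2 gate genes, 44 have 1 and 19 have none. All 5 epiblast markers outside the gate that had been listed (LIN28A, DPPA4, L1TD1, ZFP42 and UTF1) each had a UMI in at least 10% of the cluster. In the other 11 clusters 0 to 4 of these 5 markers did, and 4 in 6 of them. In the cluster of the gated cells 9 of 16 primitive streak markers and 10 of 16 mesenchyme markers were found as often. The 109 cells of the cluster that failed the gate (83 and 26) held 350 and 662 CPM of POU5F1, but MIXL1 at 269 and 267 CPM and HAND1 at 394 and 452 CPM. SOX2 stood at 29.9 CPM and 0 in them, and NODAL at 33.5 and 96.9 CPM. The levels of POU5F1 and SOX2 in these cells are set in part by the gate, which used both genes. The 5 gated cells of blastoid 4 outside the cluster held HAND1 at 451 CPM, no UMI of NANOG or UTF1, and 14.6 CPM of NODAL. They also held 218 CPM of POU5F1 and 131 CPM of SOX2. POU5F1, SOX2 and NANOG are gate genes, so their levels here are set in part by the gate. The 5 epiblast markers outside the gate summed to 1165 CPM in these 5 cells. The other cells outside the cluster held 522 CPM of these markers.

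Gated blastoid cells were compared with gated stem cells on UMIs summed per library, with edgeR's quasi-likelihood test and Benjamini-Hochberg adjustment over 13646 genes. Of these, 3062 (22.4%) passed an adjusted p of 0.05, 1644 (12.0%) higher and 1418 (10.4%) lower in the blastoid cells, with a median log2 fold change of -0.01 over every gene tested. Without the cells that share a barcode 1418 genes passed, 693 higher and 725 lower, and 1187 of them were among the 3062. DESeq2 called 1471. These counts are the background for every gene list below. The lists were chosen with earlier results of these data known and are described by counts.

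Among the genes with the clearest rises, HPGD and TMPRSS11E had few UMIs in the stem cells, while ID2, which is described with the BMP pathway, was well detected there. HPGD, which encodes the enzyme that inactivates prostaglandins, stood at 1.01 and 1.78 CPM in gated hESC 1 and 2. In gated blastoid 3 and 4 it stood at 412 and 641 CPM, a log2 fold change of 8.49 ± 0.27 (SE). TMPRSS11E, a membrane serine protease gene, went from 0.461 and 0.324 CPM to 185 and 242 CPM (9.01 ± 0.26). The groups of libraries lie far apart in both genes. DMD, the dystrophin gene, stood at 3.78 and 3.56 CPM against 186 and 225 CPM (5.78 ± 0.19). SERPINB9, which encodes a granzyme B inhibitor, stood at 15.7 and 13.3 CPM against 528 and 613 CPM (5.25 ± 0.18). SPP1, osteopontin, stood at 9.49 and 10.2 CPM against 130 and 186 CPM (4.00 ± 0.18). C9orf135 rose by 4.18 ± 0.16 and the long noncoding RNAs PCAT14 and LINC01356 by 8.71 ± 0.26 and 4.54 ± 0.16. The value of PCAT14 ranged from 8.02 without hESC 2 to 9.57 without hESC 1. HPGD, TMPRSS11E and PCAT14 had enough counts to test only through the blastoid cells, so their rises are a description. HPGD was detected in 47.8% and 67.0% of gated blastoid cells thinned to 2000 UMIs, in 4.92% and 4.24% of the other blastoid cells and in 0.141% and 0.534% of gated stem cells. Unthinned, those shares were 82.6% and 88.04%, 8.38% and 10.8%, and 0.682% and 0.904%.

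Among the largest falls were SFRP1, which encodes a secreted WNT antagonist, and the zinc finger factor ZIC2. SFRP1 stood at 649 and 744 CPM in gated stem cells and at 11.8 and 9.58 CPM in gated blastoid cells, a log2 fold change of -6.14 ± 0.25 (edgeR adjusted p = 3.45e-15). ZIC2 stood at 195 and 214 CPM against 3.93 and 3.99 CPM (-5.73 ± 0.30, adjusted p = 4.55e-13). In both genes the blastoid libraries lie close together and far below the stem cells. SFRP1 was found in 93.1% and 93.7% of gated stem cells and in 10.9% and 12.0% of gated blastoid cells, although the latter were deeper. It was found in 30.7% and 37.2% of the other blastoid cells. DUSP6, the ERK phosphatase gene, stood at 107 and 163 CPM against 1.96 and 12.0 CPM (-3.95 ± 0.34, or -6.26 without blastoid 4). PLA2G4C, a cytosolic phospholipase gene, stood at 55.3 and 51.6 CPM against 0 and 0.799 CPM, which is 1 UMI in the 138 cells. RIPOR2, ZIC5, LINC00458, TMEM132B and AP000459.2 fell too, by log2 fold changes from -3.39 for TMEM132B to -5.49 for AP000459.2. These low counts make the size of the fall uncertain. Without blastoid 4 the log2 fold change was -3.84 for AP000459.2, -3.75 for RIPOR2, -2.72 for ZIC5 and -1.996 for LINC00458. Without blastoid 3 it was -11.7 for AP000459.2, -5.88 for RIPOR2, -5.18 for ZIC5 and -6.29 for LINC00458, each still past the threshold. LINC00458, at 17.7 and 0.799 CPM in blastoid 3 and 4, was not called by DESeq2.

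Of 20 genes shared by pluripotent states, all tested, 4 rose, 9 fell and 7 did not pass, with a median log2 fold change of -0.42. UTF1 stood at 55.3 and 48.6 CPM in gated stem cells and at 153 and 197 CPM in gated blastoid cells (1.74 ± 0.16, edgeR adjusted p = 1.32e-08). GDF3, a TGF-beta family ligand of pluripotent cells, rose by 2.27 ± 0.25, and DPPA2 by 1.90 ± 0.37. The long noncoding RNA ESRG stood at 365 and 341 CPM in gated stem cells and at 626 and 528 CPM in gated blastoid cells. Its log2 fold change of 0.63 ± 0.15 passed, but not when hESC 1 (0.70) or hESC 2 (0.55) was left out. TERF1, a telomere-binding protein gene, stood at 1383 and 1384 CPM in the stem cells and at 591 and 406 CPM in the blastoid cells (-1.57 ± 0.17, adjusted p = 1.88e-07). USP44, a deubiquitinase gene, fell by 1.70 on the log2 scale and POLR3G, an RNA polymerase III subunit gene, by 1.72. DNMT3B, which encodes a de novo DNA methyltransferase, stood at 293 and 320 CPM against 196 and 109 CPM (-1.17 ± 0.19). L1TD1, an RNA-binding protein gene, did not pass at 1056 and 1153 CPM against 950 and 922 CPM, nor did DPPA4 at 477 and 515 CPM against 720 and 413 CPM. When 1 library was left out, 3 or 4 genes of the list rose and 6 to 9 fell, and without shared barcodes 4 rose and 8 fell.

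Genes of primed pluripotency were mostly lower. Of 18 tested, 12 fell, 1 rose and 5 did not pass, with a median of -1.30. OTX2, a homeobox factor, had 274 and 339 UMIs in gated stem cells (25.2 and 27.5 CPM) and none in the 138 gated blastoid cells. Against a floor of 3 counts over both blastoid libraries it was at least 15.5-fold lower there. Other blastoid cells held 2.85 and 2.84 CPM of it. SFRP2, a relative of SFRP1, stood at 493 and 520 CPM against 281 and 161 CPM (-1.34 ± 0.18, edgeR adjusted p = 6.32e-06). CD24, a surface glycoprotein gene, stood at 1282 and 1389 CPM against 632 and 548 CPM (-1.26 ± 0.16). THY1 fell by 0.77 and the POU factor gene POU3F1 by 2.67 on the log2 scale, and FOXD3-AS1 by 2.64. FOXD3-AS1 lies antisense to FOXD3, so their reads may not be told apart. FGF2 did not pass, at 117 and 104 CPM against 92.3 and 121 CPM. Leaving out 1 library gave 11 to 13 falls and 1 rise, and leaving out shared barcodes 11 falls and 1 rise.

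**Figure D3:**
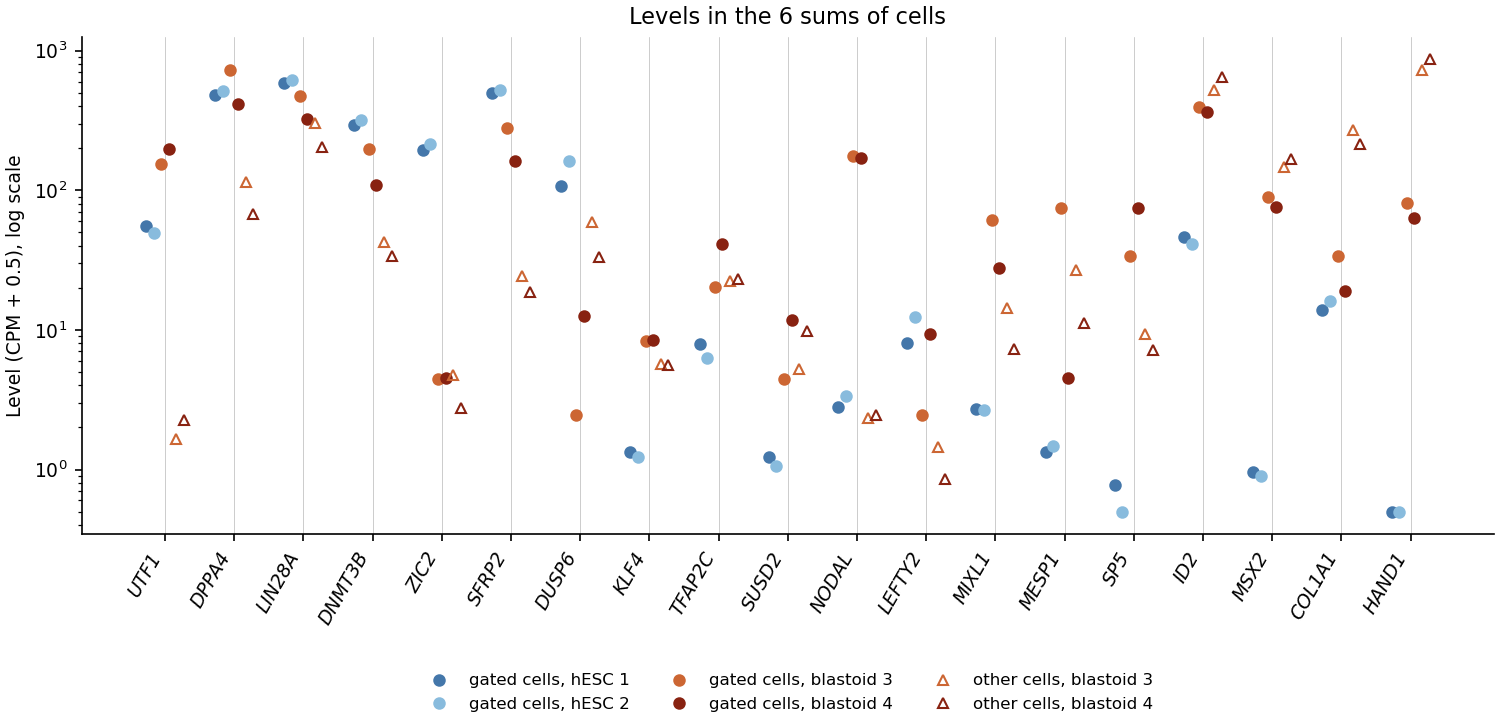
Level (CPM + 0.5, log axis) of 19 genes in gated cells of the 4 libraries (filled circles) and in the other blastoid cells (open triangles). The blastoid circles lie above the stem cells for NODAL, MIXL1, SP5 and MSX2, below them for ZIC2 and DUSP6, and far below the other blastoid cells for HAND1.

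Of 18 listed genes of naive pluripotency, 11 had enough counts to test. Of those, 9 rose, none fell and 2 (DPPA3 and DPPA5) did not pass, with a median of 3.27. A gene could pass the count filter through the group where it was high alone, so these counts describe the genes tested and not the whole list. Levels stayed low. KLF5 stood at 0.921 and 2.02 CPM in gated stem cells and at 37.3 and 86.3 CPM in gated blastoid cells (5.46 ± 0.35, edgeR adjusted p = 1.64e-11; 4.45 without blastoid 4). FGF4, a ligand gene, stood at 0.553 and 0.648 CPM against 19.6 and 17.6 CPM (4.82 ± 0.48). IL6ST, which encodes the shared receptor of LIF-type cytokines, stood at 8.94 and 7.37 CPM against 62.8 and 47.9 CPM (2.64 ± 0.24). The other blastoid cells held more IL6ST, 317 and 174 CPM. They also held more TBX3, 338 and 254 CPM against 39.3 and 31.9 CPM in gated cells and none in the stem cells. SUSD2 stood at 4.76 and 9.36 CPM in them against 3.93 and 11.2 CPM in gated cells. TFAP2C stood at 21.8 and 22.8 CPM against 19.6 and 40.7 CPM, and KLF4 at 5.16 and 5.09 CPM against 7.85 and 7.99 CPM. KLF5 (12.7 and 14.1 CPM), FGF4 (4.28 and 1.18 CPM), NLRP7 (0.815 and 1.13 CPM) and TFCP2L1 (0.951 and 2.01 CPM) were lower in them than in gated cells. NLRP7 had 30 UMIs in gated blastoid cells (11.8 and 19.2 CPM) against 0 and 3 in the stem cells. KLF4, at 7.85 and 7.99 CPM, rested on 14 UMIs, and its call was lost without hESC 1 (3.35), hESC 2 (3.12) or blastoid 4 (3.14). TFCP2L1 rested on 5 and 7 UMIs, and its call was lost with any 1 library left out, at values from 1.59 to 2.26. SUSD2 rested on 2 and 14 UMIs, and lost its call without hESC 1 (3.80), hESC 2 (3.38) or blastoid 4 (2.40). KHDC3L had 1 UMI in gated blastoid cells and KHDC1L, ARGFX and ESRRB none. Leaving out 1 library left 4 to 8 rises and no fall, and without shared barcodes 5 of 5 tested genes rose.

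Primitive streak genes were present in the gated blastoid cells. TBXT (brachyury) is listed in neither stem cell table and had 14 and 39 UMIs in gated blastoid 3 and 4, 27.5 and 31.2 CPM, at least 76.3-fold higher than in gated stem cells if each table that does not list it held up to 2 counts. It was found in 26.1% and 22.8% of gated blastoid cells and in 2.01% and 1.02% of the others, at median depths of 11100 and 13788 against 6172 and 8645 UMIs. Thinned to 2000 UMIs the shares were 10.9% and 5.49% against 0.609% and 0.275%. MIXL1 stood at 2.21 and 2.19 CPM in gated stem cells and at 60.9 and 27.2 CPM in gated blastoid cells (4.05 ± 0.35, edgeR adjusted p = 5.13e-09). WNT3, the streak-inducing ligand gene, stood at 1.38 and 2.19 CPM against 23.6 and 40.7 CPM (4.22 ± 0.36; 3.52 without blastoid 4). SP5, a direct target of WNT signalling, had 3 and 0 UMIs in gated stem cells and 17 and 93 in gated blastoid cells, 33.4 and 74.3 CPM, and its call held with each library left out, at values from 7.48 (without hESC 2) to 11.1 (without hESC 1). MESP1 stood at 74.6 CPM in blastoid 3 and 3.99 CPM in blastoid 4, and its call was lost without blastoid 3 (2.10). All of its 38 UMIs in gated blastoid 3 lay in the 14 cells with exactly 3 gate genes, 28.6% of which had any. Of 16 listed genes 6 were tested, of which 5 rose and SP8 did not pass. TBXT, SP5 and MESP1 had at most 12 UMIs in each gated stem cell library, and WNT3 had 15 and 27. These genes could pass the count filter only through the blastoid cells, so the count of rises is a description. EOMES had 5 and 5 UMIs and GSC 1 and 0 in gated blastoid cells, too few to test.

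The bases before SP5 and MIXL1 are shown because both genes rose and both stretches hold letters of the site that TCF factors, the DNA-binding partners of beta-catenin, are known to read. Each is the 150 bases before the annotated start (RefSeq, GRCh38.p14, plus strand; chr2:170715187-170715336 and chr1:226223514-226223663). Capitals mark CTTTGAT, at -109 for SP5 and at -76 for MIXL1.
SP5: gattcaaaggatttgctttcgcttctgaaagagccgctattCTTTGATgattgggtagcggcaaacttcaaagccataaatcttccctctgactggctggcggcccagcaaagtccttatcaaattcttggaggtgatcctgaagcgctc
MIXL1: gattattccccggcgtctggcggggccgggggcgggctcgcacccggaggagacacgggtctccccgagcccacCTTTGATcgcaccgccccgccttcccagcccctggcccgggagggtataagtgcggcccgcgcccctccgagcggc
These letters occur on either strand in 2.62% of the 35116 promoters of 300 bases, and in 2 of the 12 streak genes that the table holds. A letter match is not evidence of binding.

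NODAL itself, the TGF-beta family ligand that patterns the epiblast, rose with a small error. It had 25 and 35 UMIs in gated stem cells and 90 and 214 in gated blastoid cells, 2.30 and 2.83 CPM against 177 and 171 CPM (5.997 ± 0.19, edgeR adjusted p = 2.96e-17). The other blastoid cells held 1.83 and 1.95 CPM, so all other groups lie at a like low level. It was found in 60.9% and 80.4% of gated blastoid cells, in 0.892% and 0.968% of the others and in 1.70% and 1.87% of gated stem cells. Thinned to 2000 UMIs those shares were 17.4% and 39.6%, 0.422% and 0.385%, and 0.353% and 0.534%. The feedback inhibitors LEFTY1 and LEFTY2, themselves NODAL targets, did not pass. LEFTY1 stood at 10.6 and 13.6 CPM against 13.7 and 9.58 CPM, and LEFTY2 at 7.55 and 11.9 CPM against 1.96 and 8.79 CPM. The 2 genes are alike in sequence, so reads may be shared between them. FST, which encodes the activin-binding protein follistatin, rose from 19.7 and 14.3 CPM to 66.7 and 78.3 CPM (2.08 ± 0.21), and SMAD7, an inhibitory SMAD gene, by 1.30 ± 0.26. FOXH1, the SMAD partner, did not pass at 60.2 and 54.3 CPM against 39.3 and 64.7 CPM, nor did the receptor genes ACVR2A and ACVR2B. Of 12 genes of the NODAL list tested, 6 rose, 1 fell and 5 did not pass (4 to 6 rises when 1 library was left out, 5 of 10 without shared barcodes).

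Of 17 listed genes of the BMP pathway 13 were tested. Of those, 12 rose and ID3 did not pass, with a median of 1.94. MSX1 (8 and 8 UMIs in gated stem cells) and MSX2 (5 and 5) could pass the count filter only through the blastoid cells. The count of rises is therefore a description. The ligand BMP4 stood at 4.61 and 5.59 CPM in gated stem cells and at 84.4 and 80.7 CPM in gated blastoid cells (3.94 ± 0.21, edgeR adjusted p = 9.84e-13). ID2, a BMP target that blocks differentiation factors, stood at 45.6 and 40.6 CPM against 391 and 363 CPM (3.05 ± 0.15, adjusted p = 1.32e-13). The homeobox target MSX2 stood at 0.461 and 0.405 CPM against 88.3 and 75.9 CPM (7.42 ± 0.31). In each of these 3 genes the blastoid libraries lie close together. ID1 rose by 1.70 ± 0.17, ID4 by 2.85 ± 0.23 (2.23 without blastoid 4) and the decoy receptor gene BAMBI by 2.85 ± 0.23. ID3 stood at 271 and 256 CPM against 283 and 310 CPM. The other blastoid cells held more of several of these, 181 and 147 CPM of BMP4, 517 and 643 CPM of ID2 and 146 and 168 CPM of MSX2. Leaving out 1 library left 8 to 12 rises and no fall. BMP7, BMPR2 and SMAD6 lost their calls without hESC 1 (0.67, 1.00 and 2.16) or hESC 2 (0.67, 0.77 and 1.68). BMP7 and SMAD6 also lost them without blastoid 4 (0.58 and 1.80), BMPR2 without blastoid 3 (0.44) and BMPR1A without hESC 2 (0.68). Without shared barcodes 10 of 12 rose.

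In the WNT list 9 of 16 tested genes rose, 4 fell and 3 did not pass, with a median of 1.69. SP5, WNT3, WNT5A and WNT5B, among the rises, could pass the count filter only through the blastoid cells. The count of rises is therefore a description. The ligand genes WNT5A and WNT5B rose from 1.75 and 1.38 CPM to 37.3 and 28.0 CPM, and from 1.66 and 1.05 CPM to 39.3 and 29.6 CPM (4.24 ± 0.36 and 4.53 ± 0.36). TCF7, which encodes a nuclear partner of beta-catenin, stood at 5.34 and 9.23 CPM against 62.8 and 61.5 CPM (3.01 ± 0.25, edgeR adjusted p = 2.04e-09). TCF7L1, the family's repressor in pluripotent cells, went the other way, from 122 and 140 CPM to 13.7 and 18.4 CPM (-3.00 ± 0.23, adjusted p = 5.46e-10). RNF43, the feedback ubiquitin ligase gene, rose by 3.33 ± 0.40 (2.60 without blastoid 4). The receptor gene FZD7 fell by 2.20 on the log2 scale (-1.60 without blastoid 4), beside the antagonists SFRP1 and SFRP2. AXIN2, a feedback target, stood at 10.6 and 9.23 CPM against 21.6 and 22.4 CPM, and its rise of 1.11 ± 0.29 did not pass without hESC 2 (0.96) or blastoid 4 (0.95). With 1 library left out 7 to 10 genes rose and 4 fell, and without shared barcodes 7 of 14 rose and 4 fell.

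In the FGF and ERK list 4 of 22 tested genes rose, 5 fell and 13 did not pass, beside 12.0% and 10.4% of all genes. The median was 0.04. FGF4, among the rises, could pass the count filter only through the blastoid cells, so the count of rises is a description. With 1 library left out 3 to 5 rose and 2 to 4 fell (2 without blastoid 4), and without shared barcodes 4 rose and 2 fell. The receptor gene FGFR1 stood at 181 and 197 CPM in gated stem cells and at 55.0 and 55.9 CPM in gated blastoid cells (-1.82 ± 0.18, edgeR adjusted p = 3.46e-08), and DUSP6 fell as given above. The feedback inhibitor genes SPRY1 and SPRY4 stood lower in blastoid 4 (17.6 and 13.6 CPM) than in blastoid 3 (43.2 and 29.4 CPM), and neither fall passed without blastoid 4 (-0.50 and -0.69). CCND1, cyclin D1, rose from 77.9 and 98.7 CPM to 200.2 and 253 CPM (1.33 ± 0.16). The transcription factor gene ETV4, a common ERK target, did not pass at 49.0 and 58.9 CPM against 68.7 and 71.9 CPM, nor did FGFR2, SPRY2, DUSP5 or EGR1.

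Markers of the other blastoid cell types were present in the gated cells at low levels. The 16 mesenchyme markers summed to 477 and 458 CPM in gated blastoid 3 and 4, to 5561 and 4420 CPM in the other blastoid cells and to 82.1 and 85.8 CPM in gated stem cells. Against stem cells 14 of 16 rose, a description only, since genes with no stem cell UMI could be tested only through the blastoid cells. COL1A1 did not pass at 13.5 and 15.7 CPM against 33.4 and 18.4 CPM, nor did TWIST2. COL3A1, a fibrillar collagen gene listed in neither stem cell table, stood at 25.5 and 58.3 CPM in gated blastoid cells and at 1057 and 553 CPM in the others. In gated blastoid 4, 59 of its 73 UMIs came from the 14 cells with all 5 gate genes, 14.3% of which had any, while cells with 3 and 4 gate genes stood at 10.7 and 14.6 CPM. HAND1 stood at 80.5 and 62.3 CPM against 730 and 864 CPM. HAND1 was found in 21.7% and 26.1% of gated cells and in 88.1% and 93.4% of the others, and after thinning to 2000 UMIs in 13.04% and 6.59% against 69.6% and 72.0%. Thinned gated cells carried a median of 0 mesenchyme markers and the others a median of 5 and 4; 25 of 46 and 64 of 91 gated cells had none. At least 3 mesenchyme markers were found in 2 and 5 thinned gated cells. Doublet calls numbered 1 and 5 among the gated blastoid cells, and without them 2878 genes passed. On the mesenchyme list 11 of 13 tested genes then rose, with a median of 4.16 in place of 5.47. Without shared barcodes 6 of 8 tested mesenchyme genes rose. The part of mesenchyme RNA from other cells in the rises of mesenchyme, BMP and WNT genes was not tested. Leaving out 1 library left 8 to 12 rises on the mesenchyme list.

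Amnion markers summed to 62.8 and 209 CPM in gated blastoid 3 and 4, 872 and 1174 CPM in the other blastoid cells and 26.0 and 22.9 CPM in gated stem cells. TFAP2A, a factor of amnion and surface ectoderm, had 18 and 44 UMIs (35.3 and 35.1 CPM) in gated blastoid cells and is listed in neither stem cell table. ISL1 had 2 and 21 UMIs. IGFBP3 came from blastoid 4, 89.5 CPM against 3.93 CPM in blastoid 3, and its call was lost without blastoid 4 (0.72). GABRP did not pass. Amnion genes with few UMIs in stem cells could be tested only where they were high in blastoid cells. The count of rises is therefore a description. The median log2 fold change of the amnion genes tested was 4.78, or 2.99 without called doublets and 0.72 without blastoid 4. Without shared barcodes 3 amnion genes were tested, of which 1 rose and 1 fell, with a median of 0.65. Of 7 amnion genes tested, of 12 listed, 5 rose, and 1 to 5 did when 1 library was left out (1 without blastoid 4). Trophoblast markers summed to 27.5 and 40.7 CPM against 310 and 398 CPM in the other blastoid cells, and CGA, ERVW-1, SIGLEC6, ELF5 and CCR7 had no UMI in the gated cells. No hypoblast or endoderm gene had enough counts to test, and the list summed to 9.82 and 3.19 CPM. The 10 endothelium genes summed to 179 and 149 CPM in gated blastoid cells, beside 216 and 157 CPM in the other blastoid cells and 199 and 196 CPM in gated stem cells. PECAM1 and CDH5, the defining endothelial genes, had no UMI in gated blastoid cells. Of 4 endothelium genes tested 1 rose and 1 fell. The VEGF receptor gene KDR stood at 56.3 and 49.2 CPM in gated stem cells and at 109.9 and 79.1 CPM in gated blastoid cells (0.71 ± 0.17), a call lost without hESC 2 (0.60). Of neuroectoderm genes PAX6 and LHX2 had no UMI in gated blastoid cells. NES, nestin, rose from 64.0 and 70.5 CPM to 165 and 204 CPM (1.43 ± 0.15).

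Germ cell genes were few. Of 12 listed, 7 were tested and 3 rose, 0 to 3 when 1 library was left out (0 without blastoid 4) and 1 of 5 without shared barcodes. TFAP2C, which also stands on the naive list, stood at 7.46 and 5.75 CPM against 19.6 and 40.7 CPM (2.32 ± 0.31), and was not called without blastoid 4 (1.41). PRDM1 had 5 and 24 UMIs and was not called without blastoid 4 (2.04). SOX15 had 3 and 13 UMIs, and its call was lost without hESC 1 (1.38), hESC 2 (1.56) or blastoid 4 (0.79). NANOS3 and DND1 had no UMI in gated blastoid cells and SOX17 had 3. KIT, PDPN, ALPL and DPPA3 did not pass.

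Epithelial junction genes stayed expressed. CDH1 (E-cadherin) stood at 147 and 138 CPM in gated stem cells and at 181 and 184 CPM in gated blastoid cells, and EPCAM at 221 and 222 CPM against 200.2 and 254 CPM; neither passed. VIM, the mesenchymal filament vimentin, stood at 34.5 and 29.5 CPM against 60.9 and 49.5 CPM, far under the 665 and 705 CPM of the other blastoid cells. Its rise of 0.68 ± 0.20 did not pass without hESC 1 (0.82), hESC 2 (0.55) or blastoid 4 (0.76). DSP, desmoplakin, rose from 134 and 142 CPM to 289 and 435 CPM (1.37 ± 0.17) and KRT8 from 139 and 153 CPM to 406 and 505 CPM (1.60 ± 0.16, edgeR adjusted p = 3.10e-08). Both were higher still in the other blastoid cells, 642 and 891 CPM of DSP. Of 14 genes on that list 5 rose and none fell, with 2 to 6 rises when 1 library was left out.

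Of 14 dissociation stress genes 8 rose, 6 did not pass and none fell. FOS stood at 12.4 and 14.3 CPM against 128 and 87.9 CPM (2.87 ± 0.19, edgeR adjusted p = 3.27e-11), and JUN at 5.34 and 5.99 CPM against 186 and 121 CPM (4.61 ± 0.20). The other blastoid cells held 438 and 560 CPM of FOS and 225 and 361 CPM of JUN. EGR1 did not pass, nor did ATF3 or HSPA1A. Blastoids and stem cells were dissociated as separate samples, so handling and culture cannot be told apart here. With 1 library left out 4 to 8 genes rose (4 without either hESC library).

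Cell cycle genes shifted little at the median. MKI67 stood at 162 and 182 CPM in gated stem cells and at 190 and 181 CPM in gated blastoid cells and did not pass. Of 41 S phase genes 12 rose and 1 fell, and of 52 genes of G2 and M phase 1 rose and 14 fell, with medians of 0.29 and -0.31. Of all genes tested 12.0% rose and 10.4% fell, so in this fit S phase rises and G2 and M phase falls lay above the background. Without shared barcodes 3 of 40 S phase genes rose and 6 of 52 genes of G2 and M phase fell. The medians were then 0.26 and -0.017, and 693 of all 10235 genes tested rose and 725 fell. DESeq2 called 2 S phase rises and 8 falls in G2 and M phase, beside 852 rises and 619 falls among all 13646 genes. CKS2, a subunit of cyclin-dependent kinase complexes, stood at 386 and 366 CPM against 216 and 202 CPM (-0.92 ± 0.15). CBX5, heterochromatin protein HP1 alpha, stood at 326 and 351 CPM against 200.2 and 155 CPM (-1.03 ± 0.16). Leaving out 1 library gave 0 to 8 rises in S phase genes and 3 to 22 falls in G2 and M phase genes, so these counts rest on single libraries.

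In metabolism 3 of 18 genes of glycolysis and hypoxia rose and 4 fell, beside 12.0% and 10.4% of all genes, with a median of -0.07. The hexokinase gene HK2 stood at 27.5 and 24.1 CPM against 5.89 and 4.79 CPM (-2.38 ± 0.38), and PKM, pyruvate kinase, at 309 and 308 CPM against 530 and 631 CPM (0.86 ± 0.15). VEGFA and ADM, hypoxia targets, stood at 3.93 and 9.58 CPM and at 3.93 and 10.4 CPM in gated blastoid cells, and fell by 2.07 each on the log2 scale (-3.19 and -3.29 without blastoid 4). Of 6 metallothionein genes, which bind metal ions and are near-identical in sequence, so that read assignment is uncertain, 4 fell, and 2 (without hESC 1) to 5 did when 1 library was left out. MT1G stood at 208 and 145 CPM against 37.3 and 66.3 CPM (-1.70 ± 0.23; -2.41 without blastoid 4). Among DNA methylation genes DNMT3B fell, TET1 did not pass at 160 and 173 CPM against 212 and 173 CPM, and DNMT1 stood at 109 and 134 CPM against 202 and 202 CPM. The rise of DNMT1 (0.67 ± 0.15) did not pass without hESC 1 (0.54). Among 12 p53 targets 3 rose and 1 fell, and with 1 library left out 0 to 5 rose.

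**Figure D4:**
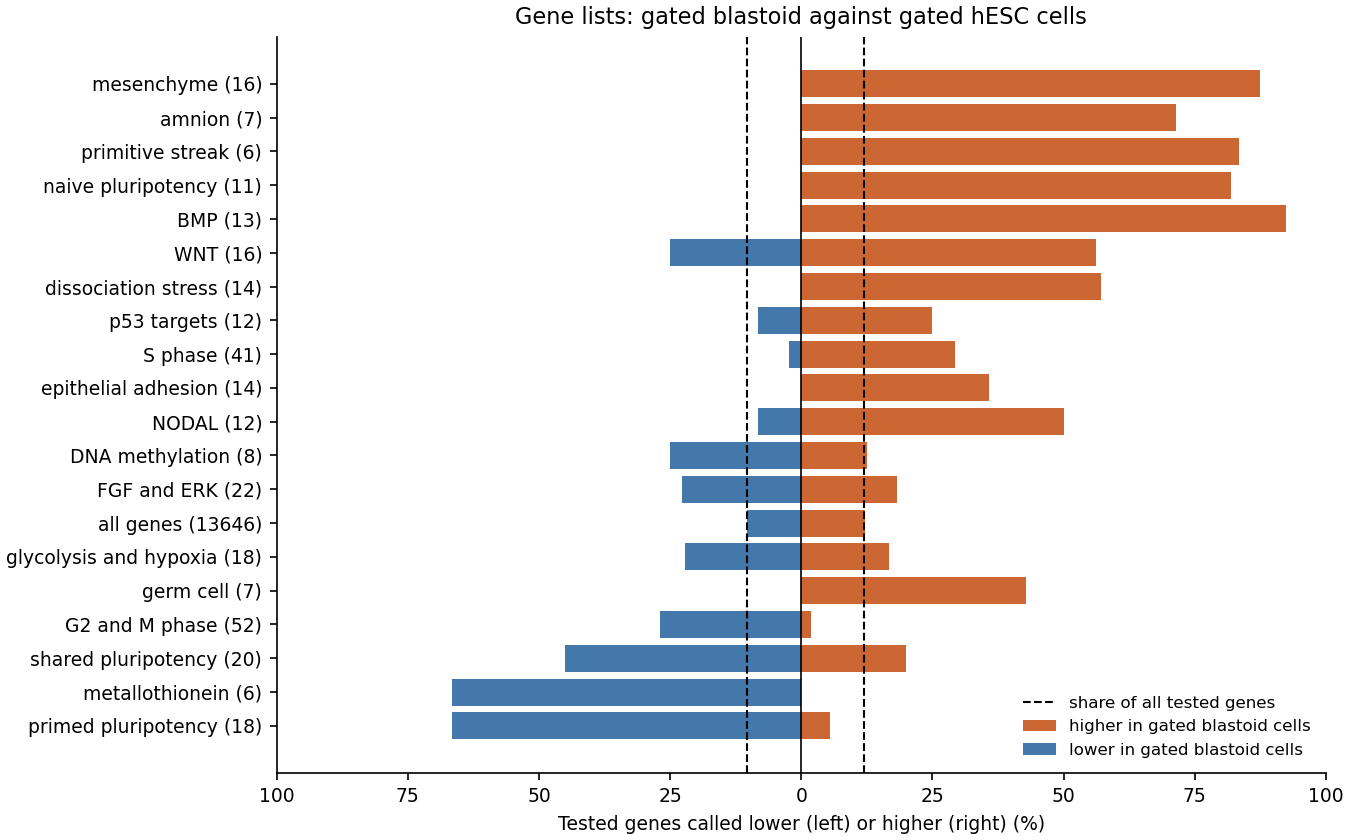
Percentage of tested genes of each list (number tested in brackets) called higher (right) or lower (left) in gated blastoid than in gated stem cells; dashed lines mark the shares of all tested genes, 12.0% and 10.4%. Mesenchyme, amnion, streak, naive and BMP lists lie mostly to the right, primed pluripotency and metallothionein lists to the left. Members with few UMIs in stem cells could be tested only where they were high in blastoid cells. The bars of the streak, amnion, naive, mesenchyme, BMP, NODAL, WNT and FGF and ERK lists are therefore a description.

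Within the blastoid libraries the gate made the split, so gated and other cells are compared by ratio, with no test. A gene counted as apart when it differed by at least 4-fold the same way in both libraries, with 0.5 CPM added and at least 20 CPM on the higher side. Of 6822 genes with that level, 307 (4.50%) were apart, 100 (1.47%) higher and 207 (3.03%) lower in gated cells. Of the 18 shared pluripotency genes with that level 7 were higher by 4-fold and none lower. UTF1 led, at 153 and 197 CPM against 1.16 and 1.78 CPM, ratios of 92.8 and 86.9. C9orf135 (82.5 and 70.5), NODAL (75.9 and 69.9) and the noncoding RNA genes LNCPRESS1 (79.1 and 53.9), ESRG (64.8 and 59.7) and MIR302CHG (54.9 and 70.2) followed. MIR302CHG is the host gene of the miR-302 cluster of pluripotent cells. AL353747.4, AC064802.1, the metalloproteinase inhibitor gene TIMP4 and the kinase gene DCLK1 complete the 10 largest. Over these 10 genes the ratios ran from 32.4 to 92.8 in blastoid 3, where no gated cell shares a barcode, and from 38.8 to 86.9 in blastoid 4.

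LIN28A, the let-7 inhibitor, was not such a gene: it stood at 475 and 322 CPM in gated and at 303 and 202 CPM in other blastoid cells. Its level rose little with the number of gate genes, from 284 and 193 CPM with none to 510 and 286 CPM with 5. It was found in 74.6% and 75.6% of the other blastoid cells and 97.8% and 96.7% of gated ones, and after thinning to 2000 UMIs in 41.9% and 31.6% against 67.4% and 51.6%. DPPA4 and L1TD1 lay between, L1TD1 at 950 and 922 CPM against 199 and 232 CPM. Against stem cells LIN28A was lower by 0.70 ± 0.16 on the log2 scale, a call lost without hESC 1 (-0.71) or hESC 2 (-0.69).

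On the other side, DDR2, a collagen receptor kinase gene, had 1 UMI in the 138 gated cells against 52.0 and 48.9 CPM in the other blastoid cells. RELN, reelin, had none against 36.6 and 21.2 CPM. The transcription factor gene SOX6 (0 and 3.19 CPM against 89.5 and 80.5 CPM), HGF, KYNU, SST, MFAP4, UNC5C, C5orf66-AS1 and KRT7 complete the 10 smallest ratios. KRT7, a keratin of simple epithelia, had 0 and 13 UMIs, 0 and 10.4 CPM against 51.6 and 94.2 CPM. In the mesenchyme list 11 of 15 genes with the level were lower by 4-fold in gated cells, and in the amnion list 6 of 7. For BMP genes 1 of 13 was, MSX1, at 27 and 16 UMIs in gated cells, with 235 and 208 CPM in the others.

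Among the 138 cells, TBXT or MIXL1 was detected in 16 of 46 gated cells of blastoid 3 and 32 of 92 of blastoid 4. NODAL was found in 75.0% and 90.6% of those cells and in 53.3% and 75.0% of the rest. The cells with TBXT or MIXL1 were also deeper, with medians of 11458 and 14608 UMIs against 10248 and 13110, and the part of depth in these shares was not tested. NODAL was detected in 28 and 74 cells, with medians of 1 and 2 UMIs over all gated cells, and the cells with it were deeper, 11830 and 14608 UMIs against 8914 and 11798. These shares come from cells of 2 libraries and are given without a test. POU5F1 ranged from 3 to 22 UMIs a cell in blastoid 3 and from 0 to 31 in blastoid 4, with medians of 10.5 and 12.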

How the data were processed

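Cells were captured with the 10x Genomics single-cell 3′ kit v3.1. The authors deposited 1 table of whole-number UMI counts per library, made with Cell Ranger on GRCh38, per the submitters' processing notes (versions not given in the sources used here). Further steps by the authors are not stated. All columns belonged to the 4 samples. The gate, gene lists and named genes were chosen with earlier results of these data known. Named genes are those of 23 lists, the 10 largest rises and falls against stem cells (mean log2 CPM of at least 5, groups not overlapping) and the 10 largest and smallest ratios within blastoids.

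Counts were summed per library over gated cells and tested with edgeR 4.0.16 (R 4.3.3; filterByExpr, TMM, glmQLFit, glmQLFTest, checked on simulated data). SE is the log2 fold change divided by the root of F. Clusters used scanpy 1.11.5 (Leiden, resolution 0.5, 30 components, 2000 variable genes). Doublets were called with Scrublet and kept. Intervals are Clopper-Pearson. Shares at equal depth rest on 2000 UMIs drawn per cell, without cells that held fewer. Of the gated cells this left 1416 of 1467 in hESC 1 and 1685 of 1769 in hESC 2. In blastoid 3 and 4 it left 46 of 46 and 91 of 92. CPM are counts per 1000000 UMIs of a sum. A group at 0 was bounded by 3 counts over its libraries or, where its tables do not list the gene, by the 95% Poisson upper limit of 2 counts for each table. A gene that a table does not list was counted as 0. A few genes that the rule names are not reported here.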

Additional observations from a re-analysis of the deposited data

How the results depend on the processing

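The number of genes that differed between gated blastoid and gated stem cells was 3062. It was 1471 with DESeq2, 919 with sums thinned to the smallest library (6812 genes tested), 1763 with a log2 fold change over 1 required, and 1418 without cells that share a barcode, an alternative chosen after seeing the data. Leaving out 1 library gave 1144 to 3315; the lone sample of a group is then assumed to vary like the others. The other alternatives gave 2408 to 4011. Library size in place of TMM gave 2929. Of 124 named genes called, 83 kept call and direction in every fit that tested them. Between gated and other blastoid cells 307 genes were 4-fold apart, 482 at 3-fold, 127 at 8-fold, 158 with a gate of 2, 905 with no minimum CPM, and 452 or 494 in a single library. The share of blastoid cells passing the gate stayed below that of stem cells in all alternatives run. A clustering resolution of 1.0 put 89.9% of gated cells in 1 cluster in place of 96.4%. Of 191 listed genes, 119 had a share of gated cells with a UMI that was higher or lower in both blastoid libraries than in both stem cell libraries, 101 to 157 under the alternatives. The same count was not made over all genes, so it has no background and says nothing about the listed genes as a set. With a gate of 2 the log2 fold change of DPPA4 was -0.46 and that of KRT7 1.71, each of the other sign in place of 0.08 and -0.66. Without blastoid 4, KRT19 was at -0.065 in place of 0.68. The cause of each was not tested. No paired analysis was possible because the groups share no replicate number. The 46 and 92 gated cells limit the depth: 1 UMI is 1.96 and 0.799 CPM.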
